A study of Mus musculus with 12 samples.

Results

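SMC2 cells, 1 of 2 smooth muscle populations of the series, were compared with Progenitor cells, both sorted from mouse aorta with its perivascular fat. The 6 libraries used, 3 SMC2 and 3 Progenitor, were taken by their labels from 12 libraries in all. The other 6, from SMC1 and Intermediate cells, entered the estimate of spread and 1 contrast with the difference studied here. Both groups came from wild type male CD-1 mice aged 13 weeks, and neither carried a transgene or had a treatment according to the labels. CD-1 is an outbred strain. Tissue was digested with collagenase D and dispase II, cells were sorted by flow cytometry, and poly(A) RNA was copied into full-length cDNA with the SMART-Seq v4 kit, which does not mark strand. Which antibodies and gates defined the populations was not given in the sources used here, and a gene that served as a sorting marker cannot be told from any other. The sources used here also do not say how many animals went into a library, and p-values measure only the spread between the libraries, part of which may be technical. The pair was set side by side because SMC2 and Progenitor had the higher Pparg levels of the 4 populations. The difference between them was not used in that choice.

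Perivascular fat lies on the outer side of the vessel wall, and around the rodent thoracic aorta it resembles brown fat. Adipocytes form when precursor cells turn on the nuclear receptor PPAR-gamma (gene Pparg), which activates genes of lipid storage and adipokines. Contractile smooth muscle cells are defined by actin, myosin and calponin genes, many of which are read by the serum response factor with its coactivator myocardin through a short promoter element, the CArG box. Pdgfra, Cd34, Ly6a and Dpp4 mark fibroblast-like stromal cells that include adipocyte precursors.

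Promoter elements of this kind were found in 4 members of a contractile gene list that were higher in SMC2, and they are shown because the contractile list had the highest median change of all lists described below. The windows come from RefSeq (GRCm38.p6) and ran from 250 bases before to 50 bases after each gene start. They are printed 5′ to 3′ on the strand of the gene, with the 10 letters that match the CArG box in capitals and up to 50 bases on each side.
Ldb3, chr14:34588657-34588766, minus strand: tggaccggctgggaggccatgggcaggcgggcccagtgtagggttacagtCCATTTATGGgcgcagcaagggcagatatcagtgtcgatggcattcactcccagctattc
Myl9, chr2:156775253-156775362, plus strand: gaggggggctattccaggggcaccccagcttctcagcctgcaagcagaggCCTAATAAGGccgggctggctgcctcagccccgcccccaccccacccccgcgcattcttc
Vcl, chr14:20929148-20929230, plus strand: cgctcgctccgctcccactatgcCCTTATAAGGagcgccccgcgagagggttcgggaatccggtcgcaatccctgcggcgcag
Myl6, chr10:128493000-128493109, minus strand: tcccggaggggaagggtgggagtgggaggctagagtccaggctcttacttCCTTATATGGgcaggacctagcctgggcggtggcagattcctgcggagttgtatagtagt
The box began 109 bases before the start in Ldb3, 161 in Myl9, 227 in Vcl and 50 in Myl6. Of 26 list members with a RefSeq window, these 4 held the box (15.4%), against 488 of 27025 RefSeq genes (1.81%). The search covered both strands, since the reverse complement of the element has the same form. A match describes letters in the window, and no match says nothing of sites elsewhere or of looser forms.

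The 6 libraries held 13258631 to 22647175 counts. Across genes, log2 CPM (CPM is counts scaled to library size with TMM factors) correlated at 0.968 to 0.983 within SMC2, 0.976 to 0.978 within Progenitor and 0.838 to 0.87 between the groups. SMC2 replicate 3 had the fewest counts and the most genes with at least 1 count (32196, against 27811 and 30773 in SMC2 replicates 1 and 2 and 29943 to 30608 in Progenitor). Mitochondrial genes took 1.49 to 1.86% of counts in SMC2 and 0.855 to 1.45% in Progenitor. Of 19016 genes tested, 8522 (44.8%) passed an adjusted p of 0.05 (edgeR quasi-likelihood test, Benjamini-Hochberg over all genes) and are termed called. Of these, 4394 (23.1% of the genes tested) were higher and 4128 (21.7%) lower in SMC2, and 2662 and 2833 changed at least 2-fold. The libraries of the groups did not overlap at 10044 genes (52.8%). The median log2 change over all genes tested was 0.06. These percentages are the background for each count of called list members.

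Adipocyte genes were not simply higher or lower in SMC2. Pparg, Fabp4, Adipoq, Plin1 and Slc2a4 were higher in SMC2, by 3.71 to 6.75 on the log2 scale, whereas Lpl, Cebpa, Cebpd and Ebf2 were lower, with log2 changes of -0.61 to -2.05. Among 36 adipogenic transcription regulators tested, 12 were higher and 14 lower with a median log2 change of 0.02, and among 43 genes of lipid uptake, storage and adipokines 23 were higher and 6 lower with a median of 0.99. The 12 higher regulators include Pparg, by whose levels the populations were chosen. Ucp1 was at 1.04 CPM or less in every library of both groups and was not called.

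Pparg (chromosome 6, 115360951 to 115490399, plus strand, GRCm38) had 456, 329 and 315 CPM in SMC2 replicates 1 to 3, against 38.05, 18.1 and 27.6 CPM in Progenitor replicates 1 to 3. The lowest SMC2 library was well above the highest Progenitor library, and the log2 change was 3.71. It is given as a description with no test, since the populations were chosen by their Pparg levels. In bulk RNA, a difference in the number of cells that express a gene and a difference in RNA per cell cannot be told apart, here and for every gene that follows. The coactivators of the PPAR receptors that drive mitochondrial programmes moved the same way. Ppargc1a had 40.4, 30.5 and 23.3 CPM in SMC2 and 1.32, 0.867 and 1.71 CPM in Progenitor (log2 change 4.58 ± 0.27 (SE), adjusted p = 1.87e-11). Ppargc1b, its relative, had 39.3, 22.1 and 26.8 CPM in SMC2, against 0.684, 0.533 and 1.39 CPM in Progenitor (log2 change 5.09 ± 0.33, adjusted p = 6.07e-11). Prdm16, a regulator of brown fat identity that smooth muscle cells also express, had 61.75, 47.5 and 40.3 CPM in SMC2 and 2.92, 3.73 and 5.62 CPM in Progenitor (log2 change 3.62 ± 0.23, adjusted p = 5.12e-11). None of these 4 genes had overlapping groups. Rxrg, a partner receptor of PPAR-gamma (3.31), Zfp467 (2.27), Nr2f2 (2.15) and the early adipogenic factor Cebpb (1.67) were also higher in SMC2.

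Other regulators of adipogenesis were lower in SMC2 or were not called. Cebpd, which acts early in adipogenesis with Cebpb, had 148, 135 and 128 CPM in SMC2, against 523, 677 and 497 CPM in Progenitor (log2 change -2.05 ± 0.19, adjusted p = 1.33e-08). Cebpa, which keeps Pparg active in mature adipocytes, had 3.73, 3.65 and 3.36 CPM in SMC2 and 4.88, 12.1 and 10.3 CPM in Progenitor (log2 change -1.33 ± 0.33, adjusted p = 0.00217). Ebf2, a marker of brown fat precursors, had 106, 76.9 and 70.02 CPM in SMC2, against 142, 111 and 131 CPM in Progenitor (log2 change -0.61 ± 0.19, adjusted p = 0.0144). The groups did not overlap at any of these 3 genes, although Ebf2 was not called without Progenitor replicate 1 (log2 change -0.52, adjusted p = 0.0527 in edgeR's test). Zfp521, an inhibitor of adipogenesis (-1.96), and Zfp423, a preadipocyte determinant (-0.68), were lower as well, and Ebf1 (0.16), Srebf1 (-0.27) and Rxra (-0.19) were not called.

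**Figure D1:**
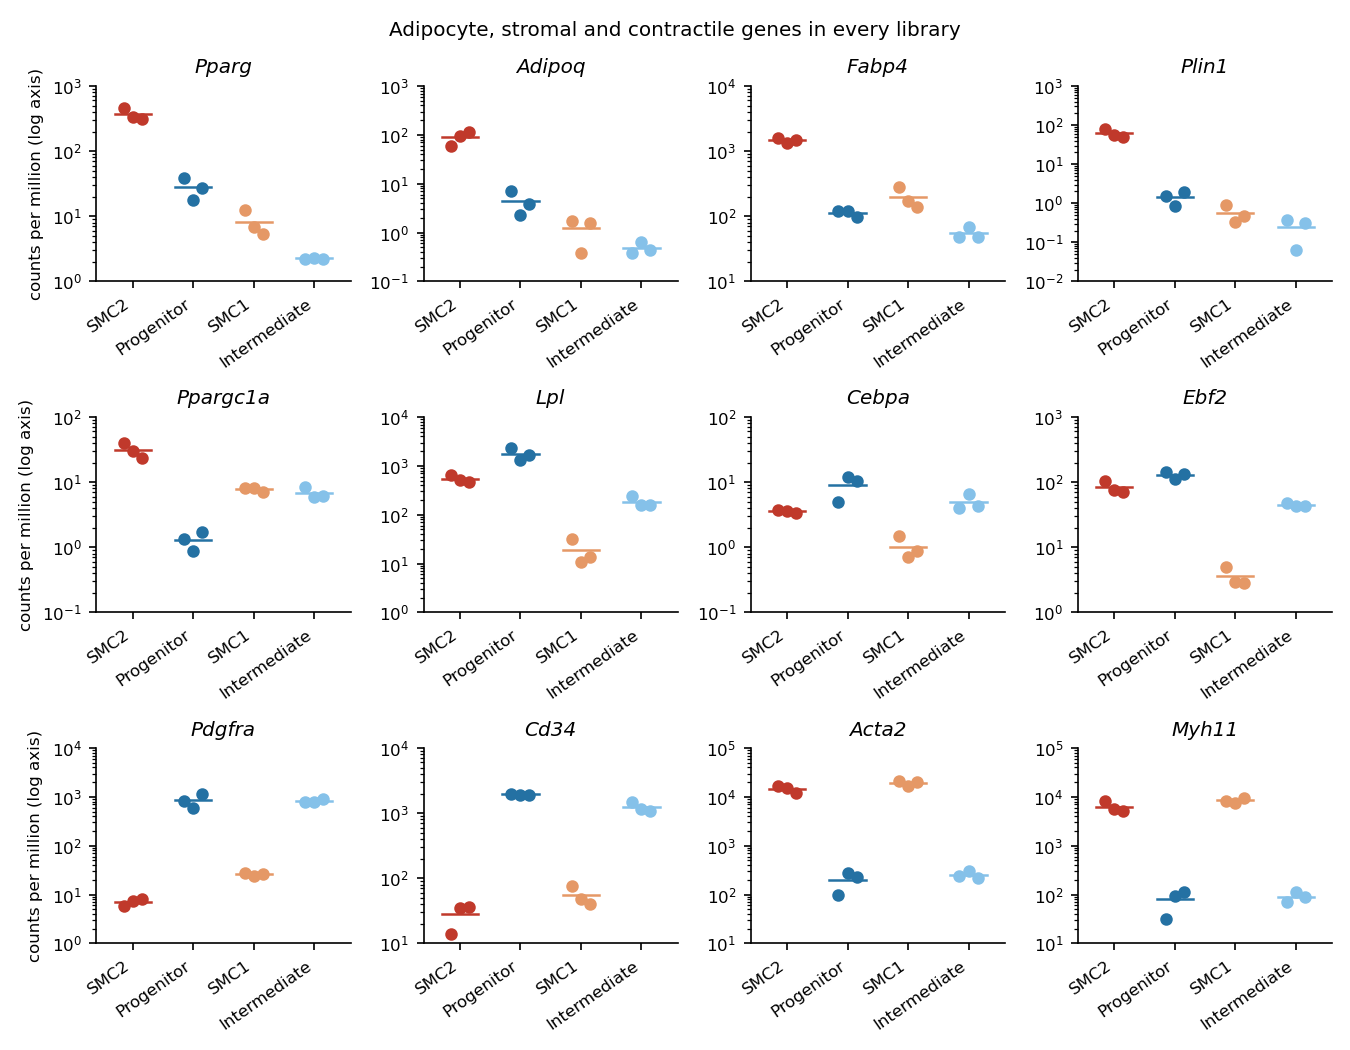
CPM (log axis) of 12 genes in every library of the 4 populations, with points for libraries and a bar for the group mean, n = 3. SMC2 points lie above all others for Pparg, Adipoq, Fabp4, Plin1 and Ppargc1a, while for Lpl, Cebpa and Ebf2 the Progenitor points lie above those of SMC2.

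Members of the lipid list that act on the lipid droplet and on glucose uptake included some with large changes. Slc2a4, the insulin-responsive glucose transporter of muscle and fat, had 409.8, 276 and 265 CPM in SMC2, against 3.96, 1.53 and 3.10 CPM in Progenitor (log2 change 6.75 ± 0.29, adjusted p = 4.71e-13). Pnpla2, the triglyceride lipase that starts lipolysis, had 1007, 690.3 and 622 CPM in SMC2 and 23.3, 25.3 and 27.2 CPM in Progenitor (log2 change 4.94 ± 0.25, adjusted p = 1.47e-12). Plin1, the perilipin of the adipocyte droplet, had 80.02, 54.7 and 48.8 CPM in SMC2, against 1.55, 0.867 and 1.9 CPM in Progenitor (log2 change 5.39 ± 0.32, adjusted p = 3.23e-11). All SMC2 libraries exceeded all Progenitor libraries at these genes, and SMC2 replicate 1 was the highest at each. Pck1, of glyceroneogenesis (6.37), the droplet protein genes Cidec (6.89), Plin5 (4.58), Plin4 (3.63) and Cidea (3.0), the lipases Lipe (2.53) and Mgll (2.53) and the acyl-CoA synthetase Acsl1 (3.26) were higher too.

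Secreted adipocyte products differed among themselves. Adipoq, the adiponectin gene (chromosome 16, 23146536 to 23158028, plus strand), had 59.7, 96.9 and 114 CPM in SMC2, against 6.97, 2.27 and 3.92 CPM in Progenitor (log2 change 4.33 ± 0.40, adjusted p = 3.09e-07). Cfd, the adipsin gene, had 427, 582 and 700 CPM in SMC2 and 3.42, 0.8 and 0.758 CPM in Progenitor (log2 change 8.32 ± 0.95, adjusted p = 6.87e-05). Fabp4, the fatty acid binding protein of fat and capillaries, had 1610, 1322 and 1495 CPM in SMC2 and 119.9, 121 and 96.8 CPM in Progenitor (log2 change 3.71 ± 0.25, adjusted p = 1.48e-10). SMC2 replicate 3 was the highest SMC2 library for Adipoq and Cfd and the lowest for Pparg, Slc2a4, Pnpla2 and Plin1, a contrast among 3 libraries that was not tested. Cd36, the fatty acid translocase, had 236, 264 and 245 CPM in SMC2, against 86.6, 50.3 and 62.03 CPM in Progenitor (log2 change 1.90 ± 0.28, adjusted p = 2.88e-05). Leptin (Lep) was at 0.69, 1.28 and 2.94 CPM in SMC2 and 0.547, 0.333 and 1.71 CPM in Progenitor, with overlapping groups, and was not called (log2 change 0.92, adjusted p = 0.38).

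Other members of the lipid list were lower in SMC2 or were not called, and they were picked here after their values were seen. Lpl, which frees fatty acids from circulating lipoproteins, had 643, 517 and 476 CPM in SMC2, against 2282, 1327 and 1693 CPM in Progenitor (log2 change -1.70 ± 0.32, adjusted p = 2.92e-04). The desaturase Scd1 (-2.44), the lipase inhibitor G0s2 (-2.77), the malic enzyme Me1 (-0.71) and apolipoprotein Apoe (-1.69) were lower in SMC2 as well. The fatty acid synthase Fasn (-0.41), its substrate enzymes Acly (-0.42) and Acaca (-0.38), the acyltransferases Dgat1 (0.30), Dgat2 (0.38) and Agpat2 (-0.29), and Plin2 (-0.42), the perilipin of most cell types, were not called. The Progenitor libraries thus held more transcript for Lpl at every comparison of single libraries, and SMC2 more for Slc2a4, Pnpla2 and Plin1.

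**Figure D2:**
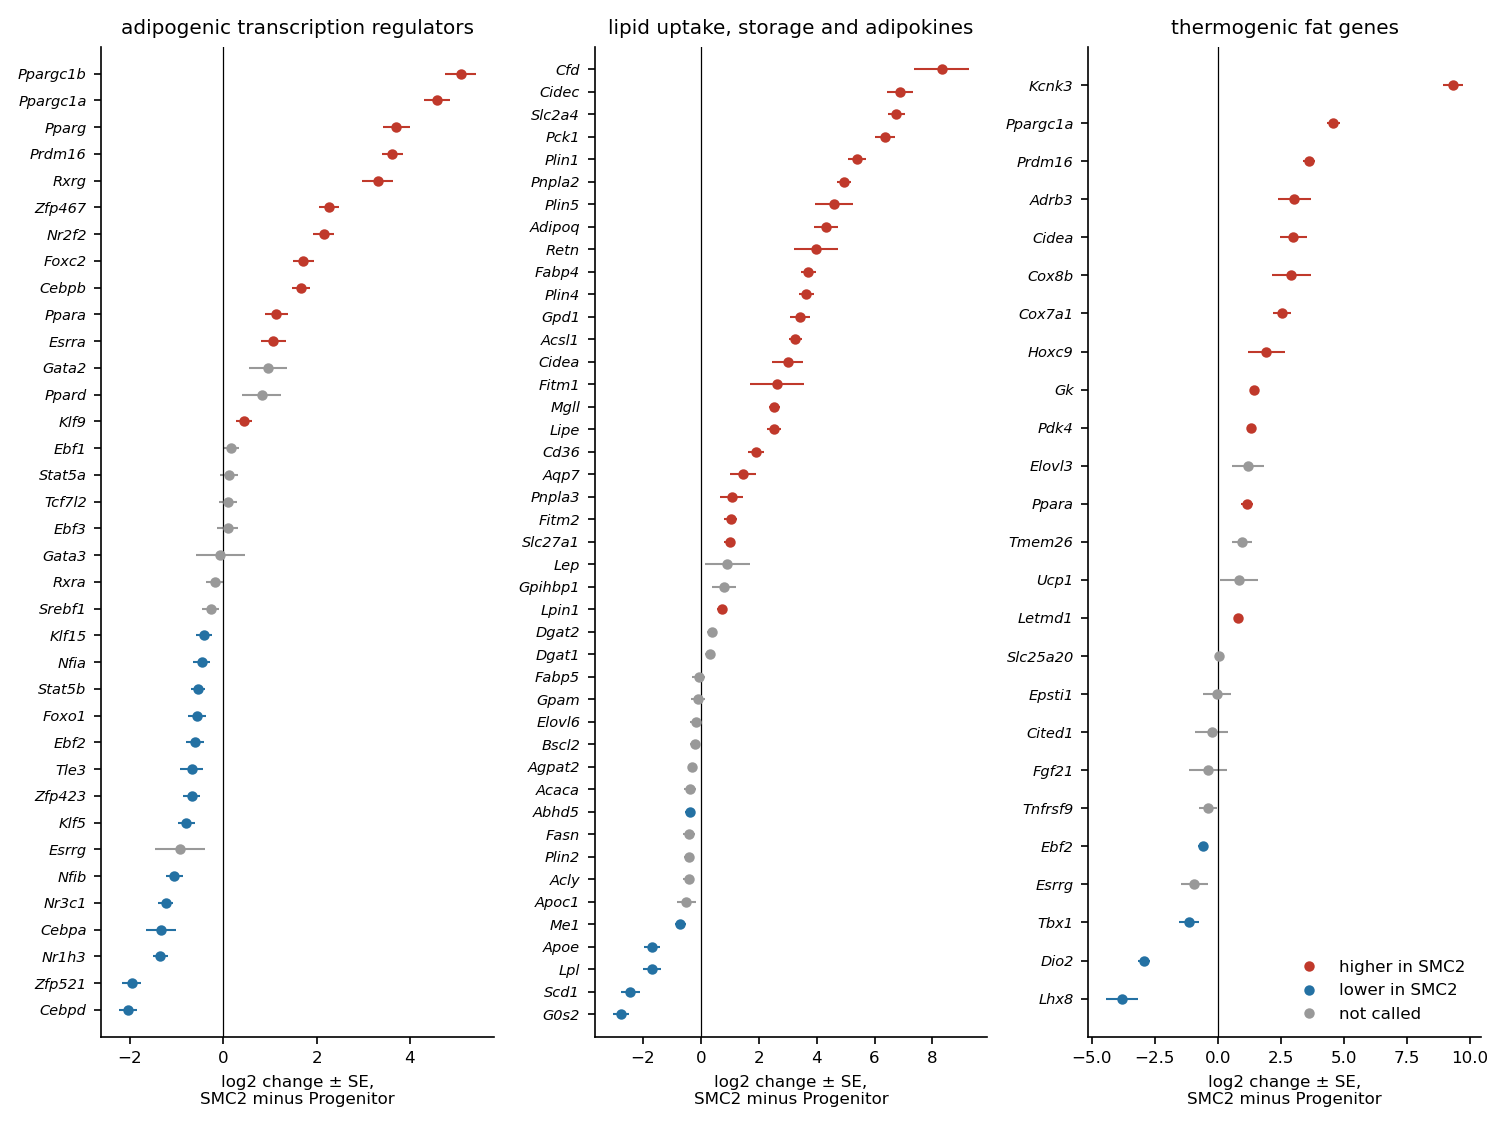
Log2 change, SMC2 minus Progenitor, with its standard error for every tested member of 3 lists (36, 43 and 25 genes), ordered by change. Red members were called higher in SMC2, blue lower and grey were not called. The regulators were called in similar numbers each way (12 higher, 14 lower), but 11 were at least 2-fold higher and 6 at least 2-fold lower. The lipid and thermogenic lists reach further to the right, to Cfd at 8.32 and Kcnk3 at 9.33.

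Of 28 thermogenic fat genes, 25 were tested, and 12 were higher and 4 lower in SMC2 with a median log2 change of 0.96. Kcnk3, an acid-sensitive background potassium channel of vascular muscle that is also a brown fat marker, changed most (9.33). Ppargc1a and Prdm16 belong to this list as well. The muscle-type cytochrome oxidase subunits Cox7a1 (2.54) and Cox8b (2.91) and the beta-3 adrenergic receptor Adrb3 (3.04) were called at low levels, with at most 6.66 CPM in any SMC2 library. Ucp1, the uncoupling protein of thermogenic fat, had 1.01, 1.04 and 0.96 CPM in SMC2, against 0.912, 0.267 and 0.442 CPM in Progenitor (log2 change 0.85 ± 0.75, adjusted p = 0.389), and the difference was not detectable at this depth. The log2 change was 1.48 without Progenitor replicate 1 and 0.54 without Progenitor replicate 2, not called either way. Dio2, which activates thyroid hormone in brown fat, was lower, with 2.25, 1.73 and 2.7 CPM in SMC2 and 13.5, 21 and 16.3 CPM in Progenitor (log2 change -2.93 ± 0.22, adjusted p = 7.82e-10). The brown and beige fat markers Lhx8 (-3.81), Tbx1 (-1.14) and Ebf2 were the other members called lower. The brown fat genes Elovl3 (1.21) and Tmem26 (0.96) were not called.

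Mitochondrial genes of the nucleus were mostly higher in SMC2. Of 31 tested subunits of oxidative phosphorylation, 22 were higher and 0 lower, with a median log2 change of 0.99. Sdhc, a membrane subunit of succinate dehydrogenase, had 239, 165 and 174 CPM in SMC2, against 37.7, 52.4 and 46.05 CPM in Progenitor (log2 change 2.09 ± 0.18, adjusted p = 7.07e-09). Uqcrfs1, the Rieske protein of complex III (1.83), cytochrome c (Cycs, 1.60), and the complex I subunit Ndufv1 (1.54) were higher as well, without overlap. Of 27 tested genes of fatty acid oxidation, 15 were higher and 3 lower (5 lower without SMC2 replicate 1), with a median of 0.87. They included the isomerase Eci1 (2.14), the dehydrogenase Acadm (2.13) and Hadhb of the trifunctional protein (1.67), while the carnitine palmitoyltransferases Cpt1a (-0.35) and Cpt2 (-0.18) were not called. Of 13 mRNAs encoded by the mitochondrial genome, 5 were called higher, mt-Cytb (0.84) with the smallest p. That count fell to 1 without any of the 3 SMC2 libraries, without Progenitor replicate 1 or without Progenitor replicate 3, and their median was 0.48.

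Among the 15 genes with the highest change in SMC2 were members of the vascular tone list (Olfr78, Olfr558, Rgs4 and P2rx1) and of the ion channel list (Kcnk3 and Kcna5). The olfactory receptor gene Olfr78 (chromosome 7, 102738511 to 102759471, minus strand), known in mice as a receptor for short-chain fatty acids in blood vessels, had 769, 527 and 345 CPM in SMC2 and 0.638, 0.467 and 0.126 CPM in Progenitor (log2 change 10.29 ± 0.57, adjusted p = 6.31e-10). Its neighbour Olfr558 (chromosome 7, 102702215 to 102712064, plus strand) had 1666, 1252 and 1048 CPM in SMC2, against 1.28, 1.33 and 0.884 CPM in Progenitor (log2 change 10.13 ± 0.33, adjusted p = 8.37e-15). Rgs4, which shortens signalling by G proteins, had 4085, 3217 and 2320 CPM in SMC2 and 5.56, 8.07 and 7.14 CPM in Progenitor (log2 change 8.86 ± 0.30, adjusted p = 1.36e-14). These levels placed all 3 genes at or below 8.07 CPM in every Progenitor library and at or above 345 CPM in every SMC2 library. P2rx1, the ATP-gated channel of arterial muscle (8.77), Rergl, of the Ras-like family (9.59), Kcna5, a voltage-gated potassium channel (9.30), Rbm24, a splicing regulator of muscle (9.0), and the G protein-coupled receptor Gpr20 (8.60) were also among the 15 genes with the highest change. The remaining members of these 15 were Kcnk3, Pcp4l1, Mrgprh, Lrrc10b, Gfra3, Myl1 and Sbspon. The change of Sbspon (8.63) is uncertain, since 72.8% of its exon bases lie in another gene as well.

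For some of these genes the Progenitor libraries held almost no counts. Myl1, an essential light chain of skeletal muscle myosin, had 63.7, 41.7 and 46.7 CPM in SMC2, and its 3 Progenitor libraries together held 3 counts, against 3009 in SMC2. The ratio of the 2 CPM totals was 903, with an exact 95% counting interval of 308.5 to 4379. Mrgprh, a Mas-related receptor, had 1455 counts in SMC2 and 2 in Progenitor, a ratio of 655 with an interval of 181 to 5411. These intervals cover counting error only. Without 1 library the fitted log2 change moved by more than 1.5-fold for Myl1 (12.86 without Progenitor replicate 3, 8.93 without replicate 1), Lrrc10b (10.45 without Progenitor replicate 3), Kcna5 and Sbspon (10.24 and 9.51 without Progenitor replicate 2) and Mrgprh (8.38 without Progenitor replicate 1). Gfra3, the receptor of the neurotrophic factor artemin, had 39.0, 48.01 and 101 CPM in SMC2 and 0.0456, 0.267 and 0.126 CPM in Progenitor, a log2 change of 8.80 that was 8.20 without SMC2 replicate 3 and 9.50 without Progenitor replicate 2.

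Across the list of 36 receptors and signalling genes of vascular tone, 29 were higher and 5 lower, with a median of 3.12. The subunits of soluble guanylate cyclase, the receptor of nitric oxide, were among them. Gucy1a1 had 799, 583 and 532 CPM in SMC2, against 11.1, 11.9 and 14.2 CPM in Progenitor (log2 change 5.69 ± 0.23, adjusted p = 1.44e-13), and Gucy1b1 had a log2 change of 4.39. Both groups were tight at these genes and far apart. Receptors of endothelin (Ednrb 5.45, Ednra 3.40), noradrenaline (Adrb1 5.44, Adra1d 4.89, Adra1a 3.01), thromboxane (Tbxa2r 2.63) and angiotensin II (Agtr1a 1.96) were higher. The vasopressin receptor Avpr1a (-3.35), the prostanoid receptors Ptger4 (-2.11) and Ptgir (-1.67) and the natriuretic peptide receptors Npr1 (-1.35) and Npr3 (-0.76) were the 5 called lower.

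Of 33 ion channel and calcium-handling genes, 32 were tested, and 27 were higher and 3 lower with a median of 3.97. Casq2, which binds calcium in the sarcoplasmic reticulum, had 261, 214 and 203 CPM in SMC2 and 0.593, 0.8 and 0.884 CPM in Progenitor (log2 change 8.23 ± 0.28, adjusted p = 1.52e-14). The receptor-operated channel Trpc6 (7.41), the sulphonylurea receptor Abcc8 (5.77) and the capsaicin receptor Trpv1 (7.76) changed in the same direction. The pump inhibitor phospholamban (Pln) had a log2 change of 8.04, which is uncertain because 64.7% of its exon bases overlap another gene. Abcc9 (-0.79) and Kcnj8 (-0.56), the subunits of the vascular ATP-sensitive potassium channel that also mark pericytes, were lower in SMC2, as was Itpr2 (-2.20).

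All 30 contractile smooth muscle genes were higher in SMC2, each at least 2-fold, with a median of 4.58, so SMC2 cells fit a smooth muscle label beside Progenitor. SMC1 cells shared such markers, with Acta2 at 19480 CPM on average in SMC1 and 14510 CPM in SMC2. Acta2, smooth muscle actin (chromosome 19, 34241090 to 34255590, minus strand), had 16650, 14940 and 11930 CPM in SMC2, against 96.8, 282 and 229.6 CPM in Progenitor (log2 change 6.16 ± 0.36, adjusted p = 2.43e-11). Myh11, smooth muscle myosin, had 8336, 5636 and 5052 CPM in SMC2 and 31.9, 91.5 and 114 CPM in Progenitor (log2 change 6.32 ± 0.42, adjusted p = 8.73e-10). Calponin (Cnn1) had 767, 1076 and 933 CPM in SMC2, against 19.3, 52.1 and 42.1 CPM in Progenitor (log2 change 4.62 ± 0.34, adjusted p = 1.13e-09). Progenitor replicate 1 was the lowest Progenitor library at all 3 genes, and every SMC2 library was above every Progenitor library. The member with the smallest p was Pcp4l1, with 749.6, 547 and 506 CPM in SMC2 and 1.23, 1.27 and 1.58 CPM in Progenitor (log2 change 8.79 ± 0.25, adjusted p = 2.96e-15).

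The 4 genes with a CArG box in their promoter window differed in size of change. Ldb3, a Z-line protein gene, had 338, 238 and 205 CPM in SMC2, against 0.912, 1.13 and 2.91 CPM in Progenitor (log2 change 7.33 ± 0.34, adjusted p = 1.56e-12). Myl9, the regulatory light chain of smooth muscle myosin, had 8155, 6547 and 5890 CPM in SMC2 and 87.1, 185 and 129 CPM in Progenitor (log2 change 5.68 ± 0.29, adjusted p = 1.96e-12). Vcl, which links actin to integrins (2.36), and Myl6, a light chain present in most cells (1.81), changed less than the list median. Their order is thus Ldb3, Myl9, Vcl and Myl6, with no overlap between groups at any of the 4. Tagln, a widely used smooth muscle marker, had only 42.3, 39.0 and 35.6 CPM in SMC2 (log2 change 5.77), and its value is uncertain because its exons largely coincide with those of another gene.

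Among 25 tested muscle transcription regulators, 17 were higher and 6 lower, with a median of 1.33. Myocd, the coactivator myocardin, had 143, 127 and 107 CPM in SMC2, against 0.775, 2.4 and 2.97 CPM in Progenitor (log2 change 5.99 ± 0.40, adjusted p = 2.13e-09). Of the T-box factors in the list, Tbx5, known from heart and limb development, had 136, 86.9 and 79.02 CPM in SMC2 and 1.87, 1.47 and 2.02 CPM in Progenitor (log2 change 5.81 ± 0.28, adjusted p = 1.04e-12), and Tbx2 (6.06), Tbx3 (5.16) and Tbx18 (0.56) were higher as well, while Tbx20 (-0.42) was not called. Srf, the serum response factor, changed by 1.21 and its cofactors Mrtfa (1.34) and Mrtfb (0.86) by a similar amount. Tcf21 (-3.97), Twist2 (-2.55), Prrx1 (-1.90), Gata4 (-2.73), Gata6 (-1.09) and Klf4 (-0.74) were lower in SMC2, several of them regulators of mesenchymal and fibroblast precursors. Exons of Twist2 overlap another gene over a large part, and Gata4 reached at most 1.9 CPM in any of the 6 libraries.

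Mural cell markers were split. Of 18, 11 were higher and 5 lower in SMC2 with a median of 2.61. Notch3, a receptor of arterial muscle and pericytes, had 594, 353 and 348 CPM in SMC2, against 6.61, 6.73 and 10.2 CPM in Progenitor (log2 change 5.78 ± 0.27, adjusted p = 7.30e-13). Mcam (6.0), Higd1b (6.13), Cox4i2 (4.88) and Rgs5 (4.56) were higher, and Steap4 (-2.80), Anpep (-2.87) and Cd248 (-3.78) lower. Pdgfrb, the receptor of mural and stromal cells, had 673, 483 and 468 CPM in SMC2 and 238, 215 and 459.8 CPM in Progenitor (log2 change 0.83 ± 0.25, adjusted p = 0.0113). It lost its call in edgeR's test without SMC2 replicate 1 (0.57), Progenitor replicate 1 (0.68) or Progenitor replicate 2 (0.63). The Notch targets Heyl (2.87) and Hey2 (3.56) were higher as well, and of 19 Notch pathway genes 9 were higher and 2 lower. Notch2 (0.00) was not called, and the modifier Lfng was lower (-2.56).

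**Figure D3:**
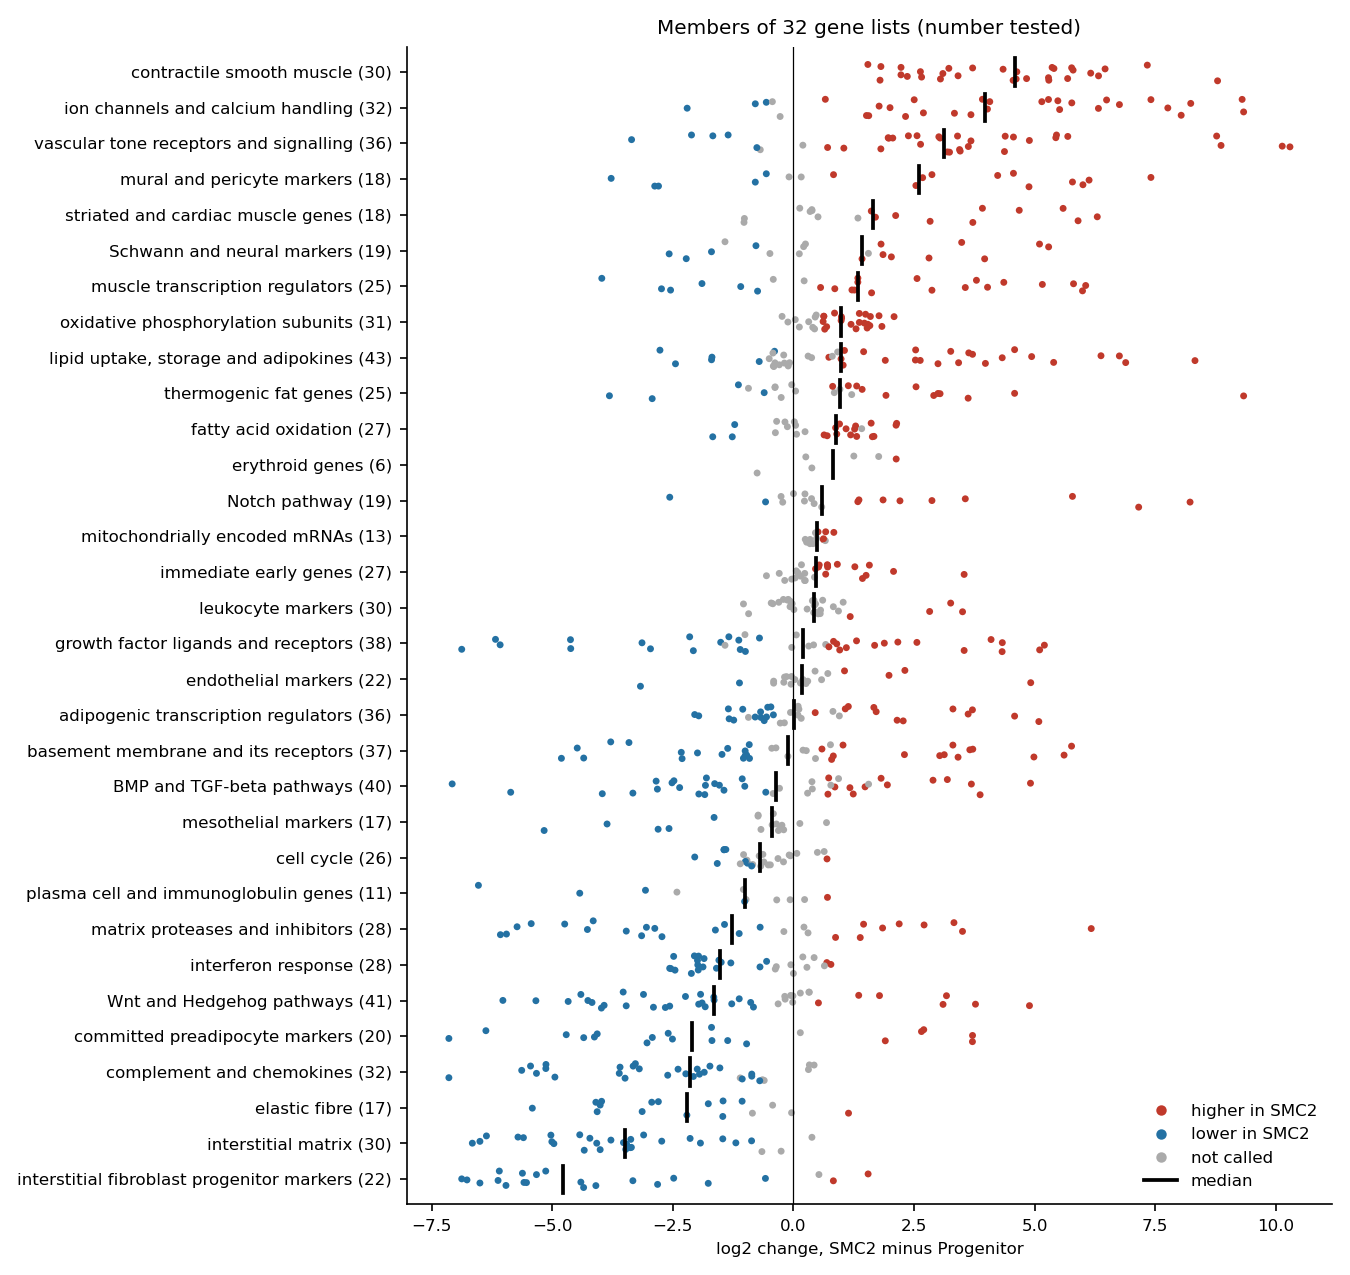
Log2 change, SMC2 minus Progenitor, of every tested member of 32 gene lists, sorted by the list median (black bar). Points are red where called higher in SMC2, blue where called lower and grey where not called, with vertical scatter added for legibility. Medians run from 4.58 in the contractile list to -4.77 in the fibroblast progenitor list, and the adipogenic regulators sit at 0.02.

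Genes of fibroblast-like progenitors and their matrix were lower in SMC2. Of 22 interstitial progenitor markers, 19 were lower and 2 higher, with a median of -4.77, so Progenitor cells fit a stromal label beside SMC2. Intermediate cells shared some of these markers. Pdgfra averaged 842 CPM in Progenitor and 819 CPM in Intermediate, and Cd34 1936 and 1234 CPM, neither called between these 2 populations. Ly6a (2889 and 678.5 CPM) and Dpp4 (234 and 34.4 CPM) were called higher in Progenitor. Pdgfra (chromosome 5, 75152292 to 75198215, plus strand) had 5.8, 7.51 and 8.28 CPM in SMC2, against 814, 581 and 1131 CPM in Progenitor (log2 change -6.87 ± 0.27, adjusted p = 9.54e-14). Cd34 had 14, 35.02 and 36.1 CPM in SMC2 and 1984, 1919 and 1905 CPM in Progenitor (log2 change -6.09 ± 0.35, adjusted p = 5.14e-11). Dpp4, a peptidase of the most immature interstitial cells, had 2.76, 7.66 and 4.2 CPM in SMC2, against 299.6, 185 and 218 CPM in Progenitor (log2 change -5.58 ± 0.46, adjusted p = 1.67e-07). Every SMC2 library was below every Progenitor library at these genes by a wide margin. Ly6a, the Sca-1 gene (-5.96), Pi16 (-6.12), the alarmin Il33 (-5.33) and the adhesion gene Opcml (-5.53) were lower too, and the exceptions were Limch1 (1.55) and Cd9 (0.83).

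SMC2 replicate 1 held less of these transcripts than the other SMC2 libraries. Dcn, the decorin gene, had 252, 507 and 512 CPM in SMC2 and 45690, 35890 and 33260 CPM in Progenitor (log2 change -6.50 ± 0.40, adjusted p = 5.96e-11), and Cd34, Ly6a and Pi16 showed the same order. The endothelial gene Pecam1 was also lowest in SMC2 replicate 1. In the other direction, Progenitor replicate 1 held less Acta2, Myh11 and Cnn1 than Progenitor replicates 2 and 3. The part of such library differences in the results was not tested.

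Of 20 committed preadipocyte markers, 14 were lower and 5 higher in SMC2. The 5 were Pparg, Fabp4, Cd36, Sparcl1 (2.65) and Dlk1 (2.70), the last a secreted inhibitor of adipogenesis. Cxcl14 (chromosome 13, 56288643 to 56296551, minus strand), a chemokine, had 0.874, 1.04 and 1.8 CPM in SMC2, against 158, 178 and 179 CPM in Progenitor (log2 change -7.14 ± 0.29, adjusted p = 1.68e-13). The matrix gene Vit (-6.37), the proteoglycan Gpc3 (-4.07) and tissue factor F3 (-4.12), markers of other preadipocyte states, were lower. The summed level of the list was 9790 to 13850 CPM in SMC2 and 9888 to 10960 CPM in Progenitor, so the sums overlapped although 19 of the 20 members were called.

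The 15 genes with the lowest log2 change included Ifi205 (-7.5), which belongs to a family of similar neighbouring genes and is uncertain for that reason, and Epyc (-6.97), of whose exon bases 40.6% overlap another gene. Bmper, an extracellular regulator of BMPs, had 2.35, 4.2 and 4.32 CPM in SMC2 and 555, 312 and 587 CPM in Progenitor (log2 change -7.07 ± 0.40, adjusted p = 3.42e-10). Hsd11b1, which regenerates active glucocorticoid, had 4.83, 8.69 and 11.8 CPM in SMC2, against 913, 656 and 705 CPM in Progenitor (log2 change -6.50 ± 0.43, adjusted p = 1.89e-09). Sult1e1, the oestrogen sulfotransferase, had 3.36, 6.32 and 8.4 CPM in SMC2 and 688, 448 and 455 CPM in Progenitor (log2 change -6.47 ± 0.38, adjusted p = 3.49e-10). All 3 were far apart between the groups, and SMC2 replicate 1 was the lowest library each time. The methyltransferase Inmt (-6.98), the dipeptidase Dpep1 (-6.88), the terminal complement component C7 (-6.85), the matrix protein Spon2 (-6.84) and the aminopeptidase Lvrn (-6.62) belonged to the same 15, as did Pdgfra, Cxcl14 and Dcn. The last members were Angptl1 (-6.74) and Clec3b (-6.65), which stood at -7.36 and -7.28 without SMC2 replicate 3.

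Of 30 interstitial matrix genes, 27 were lower and 0 higher in SMC2 with a median of -3.50, and with 1 higher without Progenitor replicate 1. The summed level of these 30 genes was 5296 to 8012 CPM in SMC2 and 109400 to 124400 CPM in Progenitor. Col3a1 had 582, 1036 and 1125 CPM in SMC2, against 24310, 26300 and 38790 CPM in Progenitor (log2 change -5.03 ± 0.30, adjusted p = 1.98e-11). The small proteoglycan Lum (-6.36), Col1a1 (-4.96), Col1a2 (-4.43), Col5a2 (-3.52) and the hyaluronan synthase Has1 (-4.22) were lower, and Postn (0.38), Fmod (-0.65) and Prelp (-0.25) were not called. Of 17 elastic fibre genes, 13 were lower. Elastin was the exception, with 347, 723 and 517 CPM of Eln in SMC2, against 150, 274 and 295 CPM in Progenitor (log2 change 1.14 ± 0.30, adjusted p = 0.00366). Its microfibril partners Fbn1 (-4.09), Mfap5 (-4.00) and Mfap2 (-4.07) were lower, so elastin and its scaffold genes differed in direction.

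Basement membrane genes and receptors were divided, with 14 of 37 higher and 16 lower. The muscle integrin Itga7 had 798, 577 and 535 CPM in SMC2, against 7.7, 10.9 and 16.7 CPM in Progenitor (log2 change 5.76 ± 0.32, adjusted p = 1.91e-11). Laminin chain Lama5 (4.98), the sarcoglycan Sgca (5.61) and dystrophin (Dmd, 3.03) were higher as well. Nidogen (Nid1, -4.48) and the laminin chains Lama2 (-4.81) and Lamb1 (-3.79) were lower. Among 28 proteases and inhibitors, 9 were higher, led by the inhibitor Timp4 (6.17), and 16 lower, led by the cathepsin Ctsk (-4.74). Mmp27 had a log2 change of -5.95, and of -6.76 without SMC2 replicate 3.

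Immune signalling genes of stromal cells were lower in SMC2. Of 32 complement and chemokine genes, 26 were lower and 0 higher with a median of -2.15, among them C3 (-5.63), Ccl11 (-5.45), Ccl7 (-4.94), Ccl2 (-3.59) and the protease C1ra (-3.49). Of 28 interferon response genes, 18 were lower, such as the immunoproteasome subunits Psmb8 (-2.56) and Psmb9 (-2.05) and Ifit2 (-1.97), and 2 were higher, among them Irf1 (0.78), with 1 higher without SMC2 replicate 1. Isg15 (0.19) and Rsad2 (0.43), widely used markers of an interferon response, were not called.

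Growth factor genes were called in both directions, 16 of 38 higher and 15 lower. In the PDGF family, the ligands Pdgfa (4.33) and Pdgfb (5.20) and the receptor Pdgfrb (0.83) were higher in SMC2, and the receptor Pdgfra was lower (-6.87). Pdgfa had 206, 163 and 168 CPM in SMC2 and 6.38, 12.7 and 7.83 CPM in Progenitor, without overlap. Fgf1 (4.33), Angpt2 (4.10) and Bdnf (5.10) were higher, while Fgf10 (-6.17), which supports adipocyte precursors, Fgf7 (-4.62) and Igf1 (-4.62) were lower. Of 41 Wnt and Hedgehog genes, 25 were lower, among them the Hedgehog coreceptor Cdon (-4.17), the antagonist Dkk2 (-6.02), Wnt5a (-4.67) and Gli3 (-2.90), and 7 were higher, among them the antagonists Sfrp5 (4.89), Sost (3.77) and Wif1 (3.17). Of 40 genes of BMP and TGF-beta signalling, 13 were higher and 19 lower. Bmp2 (3.19), Bmp6 (3.69) and the targets Id1 (1.95) and Id4 (2.89) were higher in SMC2, and Bmp4 (-3.96), Bmp7 (-3.33), Bmp1 (-2.82) and Gdf10 (-5.86) lower.

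Genes of rapid response, which tissue digestion is known to induce, were partly higher in SMC2. Of 27 immediate early genes, 14 were higher and 0 lower, and 9 were higher without SMC2 replicate 1, while 1 was lower without Progenitor replicate 1 or 3. The nuclear receptor gene Nr4a2 had 710.4, 529 and 475 CPM in SMC2, against 44.6, 56.9 and 46.2 CPM in Progenitor (log2 change 3.54 ± 0.21, adjusted p = 1.82e-11). Nr4a1 (2.08), Nr4a3 (1.57), Atf3 (1.51) and the heat shock gene Hspa1b (1.27) were higher, while Egr1 (0.15), Jun (0.09) and Dusp1 (0.06) were not called. Their part in the other results was not tested. Of 26 cell cycle genes, 8 were lower and 1 higher. The count of lower genes was 13 without SMC2 replicate 3, and the 1 higher gene was lost without any 1 of the SMC2 libraries, Progenitor replicate 1 or Progenitor replicate 2 and became 2 without Progenitor replicate 3. Mki67, a proliferation marker, was at 1.43, 2.17 and 1.98 CPM in SMC2 and 3.83, 6.4 and 6.51 CPM in Progenitor (log2 change -1.58, adjusted p = 4.86e-04). Ccnb1 (-2.05, or -2.70 without SMC2 replicate 3) was lower as well.

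Markers of other cell types were low beside the marker lists of the sorted populations. Endothelial genes summed to 624 to 634 CPM in SMC2 and 266 to 407 CPM in Progenitor, and 4 of 22 were called higher and 2 lower (1 without SMC2 replicate 1, SMC2 replicate 2, Progenitor replicate 1 or Progenitor replicate 3). Most of the SMC2 sum was Esam, an adhesion gene that mural cells also express, with 494, 361 and 315 CPM. Pecam1, a defining endothelial marker, had 23.0, 64.9 and 61.5 CPM in SMC2 and 27.2, 49.5 and 53.6 CPM in Progenitor and was not called (log2 change 0.20, adjusted p = 0.645). Leukocyte genes summed to 219.5 to 413 CPM in SMC2 and 209 to 274 CPM in Progenitor, with 4 of 30 higher (Cd163, Kit, Trac, Fcer1g) and 0 lower, or 1 lower without Progenitor replicate 3. Ptprc, the pan-leukocyte marker CD45, had 8.65, 9.43 and 9.12 CPM in SMC2, against 10.7, 11.9 and 5.94 CPM in Progenitor (log2 change -0.07, adjusted p = 0.875). Mesothelial genes summed to 114 to 162.5 CPM in SMC2 and 496 to 550.2 CPM in Progenitor, with 5 of 17 lower and 0 higher, led by Aldh1a1 (-2.58), an enzyme that stromal cells also express. Wt1 had a log2 change of -5.17, and of -6.26 without SMC2 replicate 3.

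Other minor lists differed more between libraries. Schwann and neural genes summed to 573 to 733 CPM in SMC2 and 1420 to 1690 CPM in Progenitor, with 9 of 19 higher and 4 lower. Sox10, a glial lineage factor, had 2.35, 2.72 and 6.48 CPM in SMC2 with at most 0.228 CPM in Progenitor (log2 change 5.29). Sox10 and Gfra3 were highest in SMC2 replicate 3. Mal had a log2 change of 3.96, and of 5.05 without Progenitor replicate 3. Plasma cell genes summed to 313 to 368 CPM in SMC2 and 599.6 to 689 CPM in Progenitor, mostly Xbp1. Of 11, 4 were lower, and 2 without SMC2 replicate 2, and 1 was higher (Sdc1, lost without SMC2 replicate 2 or 3). Erythroid genes were at 9.85 to 18.9 CPM in SMC2 and 7.26 to 11.4 CPM in Progenitor, and their 1 call, higher in SMC2, was lost without SMC2 replicate 3 or Progenitor replicates 2 or 3. Striated muscle genes summed to 598 to 705 CPM in SMC2 and 30.03 to 49.9 CPM in Progenitor, with 10 of 18 tested higher, such as Xirp1 (6.30), Myom1 (5.59) and Actc1 (5.90). The cardiac markers Myl2, Myl3, Myl7 and Nppa were under the count filter, and the titin gene Ttn (0.13) was not called. The part of these markers in the results was not tested.

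**Figure D4:**
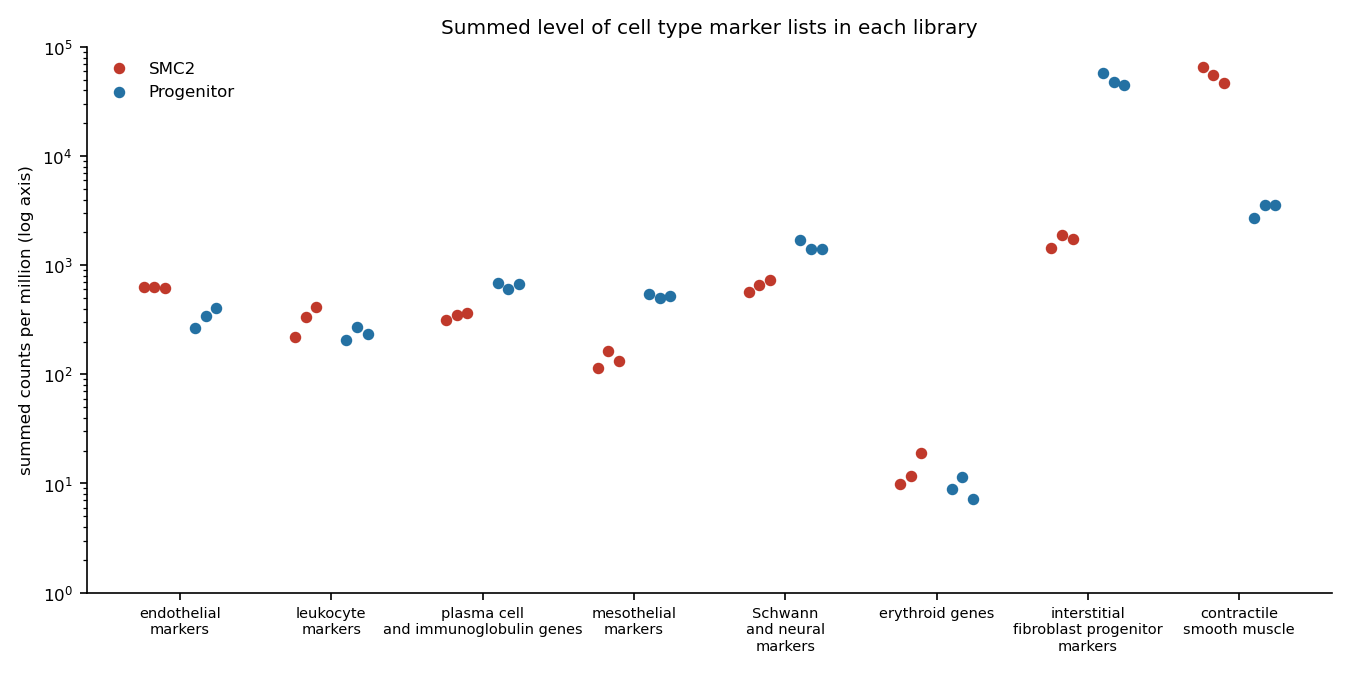
Summed CPM (log axis) of 8 marker lists in each of the 6 libraries, with the 3 SMC2 points left of the 3 Progenitor points. Contractile genes reach 47040 to 65110 CPM in SMC2 and 2690 to 3602 CPM in Progenitor, fibroblast progenitor markers 1442 to 1899 CPM in SMC2 and 44540 to 58370 CPM in Progenitor, and no other list shown exceeds 1690 CPM.

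A contrast with SMC1 minus Intermediate asked where SMC2 and Progenitor differ otherwise than the other smooth muscle and stromal pair. The 2 comparisons share no library. Of the 8522 genes called between SMC2 and Progenitor, 5125 were also called between SMC1 and Intermediate, which is 60.1% of those genes and 64.8% of the 7908 genes called between SMC1 and Intermediate. Of the shared calls 4656 had the same direction (2212 higher, 2444 lower) and 469 the opposite. In 281 genes SMC2 was above Progenitor while SMC1 was below Intermediate, and 188 were the reverse. The difference between the differences was called at 4280 of 19016 genes (22.5%) in edgeR's test, above 0 at 2314 (12.2%) and below 0 at 1966 (10.3%).

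The contractile genes shared by both pairs showed little or negative difference. Acta2 had a log2 change of 6.16 in SMC2 over Progenitor and 6.27 in SMC1 over Intermediate, a difference of -0.11 ± 0.41 (adjusted p = 0.885), and Myh11 a difference of -0.23 ± 0.48 (adjusted p = 0.788). Cnn1 changed by 4.62 and 6.66 in the same order of pairs, a difference of -2.04 ± 0.42 (adjusted p = 0.00136). Of the 30 contractile genes, 5 had a difference above 0 and 8 below 0. Several adipocyte genes had a difference above 0. Plin1 changed by 5.39 in SMC2 over Progenitor and 1.15 in SMC1 over Intermediate (difference 4.24 ± 0.80, adjusted p = 6.50e-04), Adipoq by 4.33 and 1.31 (3.02 ± 0.85, adjusted p = 0.0188) and Ppargc1a by 4.58 and 0.19 (4.39 ± 0.35, adjusted p = 2.48e-08). Pparg changed by 3.71 and 1.85, a difference of 1.86 that is given as a description with no test, since the populations were chosen by their Pparg levels. Prdm16 went the other way (difference -0.94 ± 0.31, adjusted p = 0.0351), with means of 93.6 CPM in SMC1 and 49.9 CPM in SMC2. The differences of Cd36 (0.40), Acsl1 (-0.19) and Cebpa (0.94) were not called. In the lipid list, 18 of 43 differences were above 0 and 2 below 0, and in the adipogenic regulator list 13 of 36 and 3, with Pparg counted among the 13.

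Differences are ranked here among genes called in the contrast whose SMC2 and Progenitor libraries did not overlap and whose most abundant population averaged 4 log2 CPM or more, gene models without a proper name left out. The highest included Pcsk1, a prohormone convertase, with 141, 81.4 and 67.9 CPM in SMC2 and 0.228, 0.0667 and 0.758 CPM in Progenitor, and with means of 1.28 CPM in SMC1 and 1.57 CPM in Intermediate (difference 8.41 ± 0.59, adjusted p = 1.72e-08). Its log2 change in SMC2 over Progenitor was 8.11, and 9.17 without Progenitor replicate 3. Cacna1g, a T-type calcium channel, changed by 2.49 in SMC2 over Progenitor and -5.31 in SMC1 over Intermediate, Hopx, a homeodomain cofactor, by 3.99 and -3.52, and the peptide gene Edn3, endothelin 3, by 2.56 and -4.90. These 3 were thus higher in the smooth muscle member of 1 pair and lower in that of the other. Olfr558 (difference 7.66) and Olfr78 (7.5) were higher in both pairs. Within these limits the lowest differences were those of the antibody genes Jchain (-8.24) and Igkc (-7.54), of Gpr165 (-7.04), Sult1e1 (-6.87), the decoy receptor Il1r2 (-6.16) and the phospholipase Pla1a (-5.81). Outside them, the antibody gene Igha had a difference of -13.77 with overlapping SMC2 and Progenitor libraries.

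The antibody genes were uneven between libraries. The larger part of the differences of Jchain and Igkc came from SMC1 over Intermediate, where they changed by 5.18 and 5.13. Their means were 9.34 and 19.35 CPM in SMC1 and 0.251 and 0.549 CPM in Intermediate. Jchain had 0, 4.4 and 6.0 CPM in SMC2, against 22.1, 32.1 and 31.3 CPM in Progenitor (log2 change -3.07, adjusted p = 0.0114), and -3.78 without SMC2 replicate 3. Igkc had 0.23, 4.89 and 15.3 CPM in SMC2 and 41.9, 25.7 and 38.8 CPM in Progenitor (log2 change -2.41, adjusted p = 0.0595), and it was called with upper-quartile scaling, without SMC2 replicate 1 (-1.91) or without SMC2 replicate 3 (-3.88). Sult1e1 and Pla1a were abundant in Progenitor, with means of 6.03 and 3.26 CPM in SMC2, 530.2 and 213 CPM in Progenitor, 1.44 and 1.82 CPM in SMC1 and 1.09 and 2.14 CPM in Intermediate.

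**Figure D5:**
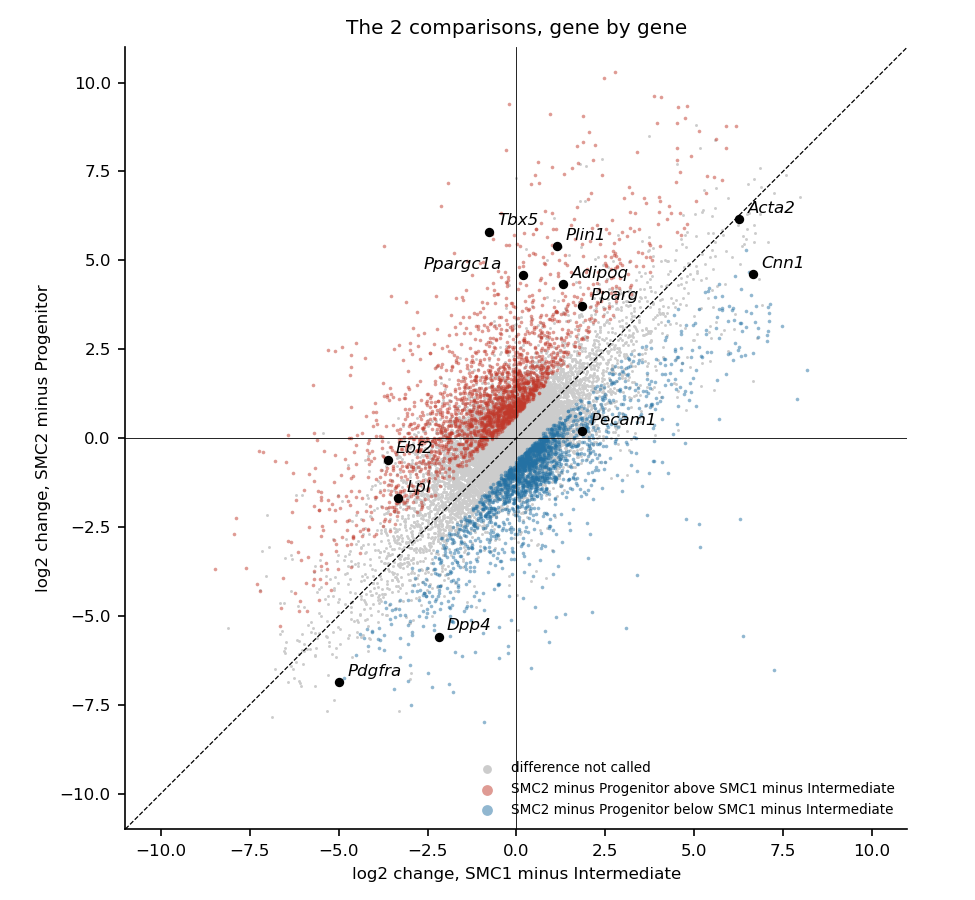
Log2 change of each tested gene in SMC2 minus Progenitor (vertical) against SMC1 minus Intermediate (horizontal), with the dashed line where both are equal. Red genes had a called difference above 0 (2314) and blue below 0 (1966). Acta2 lies near the line at 6.16 and 6.27, while Tbx5, Plin1, Ppargc1a, Adipoq and Pparg lie above it.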

How the data were processed

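The only values used were raw read counts per gene and library, which the authors deposited as whole numbers for 33352 genes. Per the submitters' processing notes, STAR 2.5.2a, DESeq2 1.26.0 and the genome build mm10 were used upstream. How reads were assigned to genes, and with which annotation, was not given in the sources used here. The kit does not mark strand, so sense and antisense transcripts at a locus are counted together. Missing symbols, coordinates and exon overlaps came from GENCODE M21 (GRCm38), and promoter windows from RefSeq.

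The counts were analysed in edgeR 4.0.16 with limma 3.58.1 under R 4.3.3. After filterByExpr, 19016 genes remained, and a model of group means was fitted to all 12 libraries with 8 residual degrees of freedom. TMM scaling, robust dispersions (common biological coefficient of variation 0.206) and the two-sided quasi-likelihood F test were used, with Benjamini-Hochberg adjustment and a threshold of 0.05. Each SE was obtained as the log2 change over the square root of F. Log2 CPM used a prior count of 2. The contrast of SMC2 minus Progenitor with SMC1 minus Intermediate used the same model. The code was tested on simulated counts. No replicate libraries looked like duplicates (chi-square over its degrees of freedom at least 10.1 for pairs within SMC2 or Progenitor and 8.17 or more in the other groups).

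The 32 gene lists (826 entries), the members and the tests were chosen with earlier results of these data known. The naming rule took 15 genes each way by log2 change, among called genes without overlap whose higher group averaged 4 log2 CPM or more, and skipped gene models without a proper name. It added 22 core genes, up to 5 members of each list by smallest p, and 6 genes each way for the contrast. Further list members were named after their values were seen, to show both directions of a list. Alternatives were median-of-ratios and upper-quartile factors, no filter on low counts, DESeq2 1.42.0, the 6 libraries alone, a replicate block and each library left out. Depth was 13258631 to 22647175 counts per library, of amplified and so not independent molecules.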

Additional observations from a re-analysis of the deposited data

Results flagged for a closer look

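Several core genes differed between SMC2 minus Progenitor and SMC1 minus Intermediate by edgeR's test of the difference itself. The differences were above 0 for Fabp4 (1.89), Adipoq (3.02), Plin1 (4.24), Ppargc1a (4.39), Lpl (1.63), Ebf2 (3.02), Tbx5 (6.58) and Pdgfrb (1.35). Lpl and Ebf2 were lower in SMC2 than in Progenitor, and lower by more in SMC1 than in Intermediate. The differences were below 0 for Pdgfra (-1.90), Cd34 (-1.60), Ly6a (-2.23), Dpp4 (-3.40), Cnn1 (-2.04) and the endothelial gene Pecam1 (-1.66). Pparg had a difference of 1.86, which is only a description because Pparg levels chose the populations.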

How the results depend on the processing

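The count of genes called between SMC2 and Progenitor was 8494 with median-of-ratios factors, 8600 with upper-quartile factors, 7996 without the filter, 8638 with DESeq2, 8112 with the 6 libraries alone and 7385 to 8316 with 1 library left out, and 83.9 to 99.3% of the 8522 calls recurred. The share of calls higher in SMC2, 51.6%, fell below 50% with median-of-ratios factors (49.9%), upper-quartile factors (47.55%), no filter (45.4%) and DESeq2 (49.8%), and was 44.99 to 51.4% with 1 library left out, below 50% without any of the SMC2 libraries. Neither direction was therefore more frequent under all settings. The median log2 change of all genes moved from 0.06 to -0.08 without SMC2 replicate 3. Genes called in the contrast of both pairs numbered 3706 to 4667 over all alternatives.

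The labels share replicate numbers between groups but do not say that a number marks a shared animal or batch. Deviations from the group means correlated at 0.12, -0.0177 and 0.114 for numbers 1, 2 and 3, and at -0.145 to 0.0368 for unlike numbers. Number 2 fell short of a limit set beforehand for every number, so the main fit used no pairing. Whether the libraries are paired cannot be decided from these correlations. A fit with a replicate block called 8842 genes between SMC2 and Progenitor and 4490 in the contrast. Changes of named genes were counted once per gene and alternative, so a gene can count several times. In 51 such cases the call was lost, mostly for mitochondrial mRNAs and antibody genes, and in 7 cases a call was gained. No sign changed where either fit called the gene. Uncalled genes could change sign with a library left out, such as Ptprc (-0.31 to 0.11) and Pecam1 (-0.12 to 0.47). List counts moved by over 1.5 times in 39 of 768 cases, all in counts of at most 14 genes.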

Other observations

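Gene groups also differed in the contrast of SMC2 minus Progenitor with SMC1 minus Intermediate. Counted by edgeR's test of the difference (adjusted p of 0.05, called above 0 at 12.2% and below 0 at 10.3% of all genes), 22 of 36 vascular tone genes were above 0 and 5 below, with medians of 1.67 for the list and 0.05 for all genes tested. Among 32 ion channel and calcium genes 19 were above 0 and 3 below, and among 27 immediate early genes 16 and 0, led by Nr4a2 (4.56). Interstitial matrix genes were mostly on the other side, with 2 of 30 above 0 and 16 below, such as Col5a2 (-2.79) and Col3a1 (-2.48), and so were elastic fibre genes, with 1 of 17 above and 10 below, such as Fbn1 (-3.61). Mesothelial markers, with 7 of 17 above 0 and 0 below, and endothelial markers, with 1 of 22 above and 6 below, moved in the same contrast, and their part in it was not tested.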
